A study of Homo sapiens with 2 samples.

Results

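CCL2, CCL5 and PTGS2 are 3 inflammatory genes that differed in opposite directions when HT1080 cells received a short hairpin RNA (shRNA) against cMyc. They were selected on these differences between the arrays, and taken by gene symbol from the 14884 genes named on the array. Each was read by 1 of its 53617 probe sets. HT1080 is an established human fibrosarcoma cell line. The first group consists of cells infected with virus carrying the cMyc shRNA, and the second of cells infected with virus carrying a non-targeting control shRNA, both harvested after 48 hours. Each group has 1 Affymetrix Human Gene 2.0 ST array. Both groups share the infection itself; the hairpin sequences and the dose of virus are not stated in the labels, and no uninfected group is analysed here.

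CCL2 and CCL5 are secreted CC chemokines, small proteins that attract leukocytes by binding G-protein-coupled receptors. CCL2 draws mainly monocytes through CCR2, and CCL5 draws T cells, monocytes and eosinophils. PTGS2 is the inducible cyclooxygenase, which turns arachidonic acid into the common precursor of prostaglandins, while its relative PTGS1 is made constitutively in many tissues. Transcription of all 3 genes is known to respond to NF-kB. CCL5 also responds to interferon regulatory factors switched on by foreign RNA, and PTGS2 to C/EBP, CREB and AP-1 factors.

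Of the 3 genes, only PTGS2 has an entry in the RefSeq promoter table (GRCh38.p14), which covers 250 bases before to 50 after each gene's start. Its window is shown because factors that bind such motifs are measured below. It lies at chr1:186680374-186680673 on the minus strand. The window of PTGS1, the constitutive relative, is at chr9:122370283-122370582 on the plus strand. Those of CXCL10 (chr4:76023448-76023747, minus strand) and CCL20 (chr2:227813592-227813891, plus strand) are shown as chemokines whose values lay on the side of CCL5 and of CCL2. Both were picked by these values, and CXCL10 was below the level filter described later. All are written 5′ to 3′ along the gene, and capitals mark every match to the 8 motifs described next.
PTGS2: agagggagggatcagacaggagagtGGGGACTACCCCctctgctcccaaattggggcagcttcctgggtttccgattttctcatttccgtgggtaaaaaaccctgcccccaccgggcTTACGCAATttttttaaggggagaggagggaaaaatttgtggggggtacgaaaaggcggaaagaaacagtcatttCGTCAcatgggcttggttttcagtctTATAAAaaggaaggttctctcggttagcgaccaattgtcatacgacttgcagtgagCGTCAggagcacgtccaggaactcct
PTGS1: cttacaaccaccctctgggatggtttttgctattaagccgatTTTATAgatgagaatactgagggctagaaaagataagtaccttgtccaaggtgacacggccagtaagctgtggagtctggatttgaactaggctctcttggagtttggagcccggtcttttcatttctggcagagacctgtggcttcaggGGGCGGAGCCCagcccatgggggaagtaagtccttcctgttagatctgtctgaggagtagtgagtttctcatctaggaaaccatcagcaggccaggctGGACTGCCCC
CXCL10: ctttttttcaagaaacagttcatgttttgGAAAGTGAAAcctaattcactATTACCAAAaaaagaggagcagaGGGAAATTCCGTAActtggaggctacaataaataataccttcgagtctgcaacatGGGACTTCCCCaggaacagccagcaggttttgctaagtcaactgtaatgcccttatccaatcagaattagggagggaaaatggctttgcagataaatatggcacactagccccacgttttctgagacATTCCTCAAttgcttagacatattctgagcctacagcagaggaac
CCL20: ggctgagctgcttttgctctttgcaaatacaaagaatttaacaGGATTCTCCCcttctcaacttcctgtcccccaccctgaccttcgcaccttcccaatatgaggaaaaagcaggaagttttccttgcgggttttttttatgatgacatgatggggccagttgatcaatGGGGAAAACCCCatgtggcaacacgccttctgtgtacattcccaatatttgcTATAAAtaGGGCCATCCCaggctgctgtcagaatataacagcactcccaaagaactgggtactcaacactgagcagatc

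The motifs were sought on both strands of all 35116 promoters of that length. They were a kappaB pattern for NF-kB (GGGNNNNNCC, in 58.7% of promoters), a C/EBP pattern (TTNNGNAAT, 11.0%), the CRE half-site of CREB and ATF factors (TGACG, 24.6%) and the TATA box (TATAAA, 11.5%). The others were the E-box bound by MYC and its partners (CACGTG, 7.26%), the interferon-stimulated response element ISRE (GAAANNGAAA, 3.57%), AP-1 (TGANTCA, 7.71%) and EGR (GCGNGGGCG, 9.43%). With the start site counted as position 0, the PTGS2 window held 4 overlapping kappaB matches between -225 and -214. It also held a C/EBP match at -133 to -125, CRE half-sites at -58 to -54 and at 24 to 28, and a TATA box at -32 to -27. The letters of the E-box, ISRE, AP-1 and EGR patterns were not in it. PTGS1 held kappaB matches and a TATA pattern on the reverse strand at -208 to -203, far from the start, and no C/EBP or CRE match. CXCL10 held an ISRE at -221 to -212 besides kappaB and C/EBP matches, and CCL20 held kappaB matches and a TATA box at -29 to -24. CXCL11, the listed chemokine ligand with the highest difference among those measured, held kappaB, AP-1 and TATA matches and no ISRE. A match describes letters and not binding.

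The deposited values are log2 expression levels, with medians over all probe sets of 3.73 on the cMyc shRNA array and 3.68 on the control shRNA array. Differences are cMyc shRNA minus control shRNA, so a positive one means a higher level with the cMyc shRNA. Replicates are lacking, so no test was run, no p-value is given and every difference describes these 2 arrays. The SD of a single difference between probe sets of the same gene was 0.34 on the log2 scale (416 genes with at least 2 measured probe sets). That is a technical figure, which leaves out variation between cultures and infections. Pairs of probe sets with identical values, as for TNF, were kept and lower it. A gene counted as measured when its mean level over both arrays reached the median over all probe sets, and 10258 genes did. The targeted gene, MYC, had a log2 level of 6.16 with the cMyc shRNA and 7.09 with the control shRNA, a difference of -0.93. The labelled cell type was checked with markers. Of 10 named mesenchymal markers 9 were measured (median difference 0.15), led by FN1, the matrix protein fibronectin, at 12.6 with the cMyc shRNA and 12.4 with the control. VIM, the mesenchymal filament, differed by -0.59, -0.95 and -1.02 on its 3 probe sets, with levels of 9.34 and 9.94 on the brightest. SNAI2 (11.4 and 11.4), MMP14 (10.5 and 10.2), FBN1 (9.23 and 8.78) and LOX (8.71 and 8.51) also read high. TWIST1 (4.28 and 4.31) and THY1 (4.86 and 4.50) read low, and S100A4 was below the filter. Of 13 named epithelial markers 5 were measured (median -0.46), with KRT18, a keratin, at 8.41 and 9.09 on its brighter probe set, while the adhesion protein EPCAM was below the filter at 3.07 and 2.73.

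CCL2 (probe set 16833204, NM_002982, on chromosome 17) had a log2 level of 4.99 with the cMyc shRNA and 7.00 with the control shRNA. The difference was -2.02, or 4.04-fold lower. With the cMyc shRNA the chemokine was still read 1.26 above the array median, against 3.32 above it with the control. A lower difference was found in 48 of the 10257 other measured genes.

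CCL5 (probe set 16843511, NM_002985, also on chromosome 17) had a log2 level of 6.83 with the cMyc shRNA and 4.64 with the control shRNA. The difference was 2.19, or 4.56-fold higher. On the control array it stood 0.96 above the median of all probe sets, and on the cMyc shRNA array the margin was 3.10. Of the 10257 other measured genes, 38 had a higher difference.

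PTGS2 (probe set 16697370, NM_000963, on chromosome 1) had a log2 level of 6.31 with the cMyc shRNA and 3.90 with the control shRNA. The difference was 2.41, or 5.32-fold higher, and 33 other measured genes exceeded it. The control value was only 0.21 above the array median, and no detection call is available, so the size of this fold is uncertain. When low values were damped by adding 16 to each linear value, the fold was 3.08.

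All 3 genes passed the level filter on each array taken alone. Past 2-fold in either direction were 3 of 3, against a background of 6.01% of the 10258 measured genes. Higher by at least 2-fold were 2 of them, CCL5 and PTGS2, against a background of 2.01% (206 genes), and CCL2 was 1 of 410 measured genes lower by at least 2-fold. These genes were picked for these differences, so the counts carry no weight of their own. The difference of CCL5 exceeded that of the other chemokine, CCL2, by 4.204 on the log2 scale. PTGS2 and CCL5 were 0.22 apart, less than the 0.48 that the technical SD gives for the gap between differences of separate genes.

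**Figure D1:**
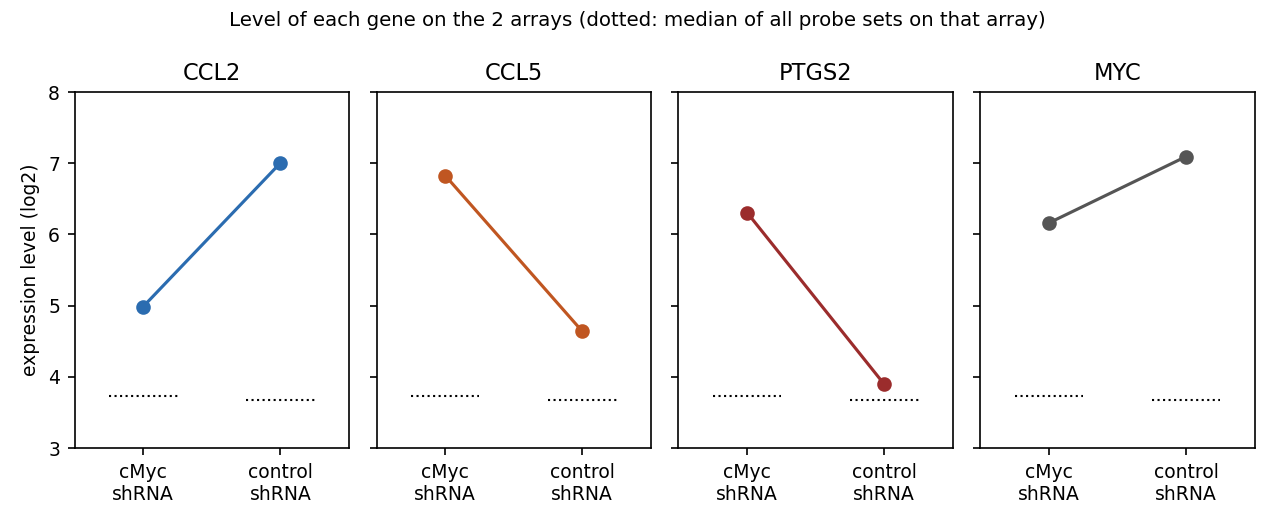
Log2 expression level (vertical axis) of CCL2, CCL5, PTGS2 and MYC on the cMyc shRNA array and the control shRNA array, 1 point per array, with no error bars because there are no replicates. CCL5 and PTGS2 are higher with the cMyc shRNA, CCL2 and MYC are lower, and the control value of PTGS2 (3.90) lies close to the dotted array median (3.68).

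Each gene was also set beside the 500 measured genes nearest to it in control level. Around CCL2 these had control levels of 6.87 to 7.14 and a median difference of -0.09 (SD 0.58), and 3 of them were lower than CCL2. Around CCL5 the control levels ran between 4.52 and 4.76, the median was 0.01 (SD 0.53), and 3 genes were higher. Around PTGS2 they began at 3.79, with a median of 0.09 (SD 0.33), and 0 genes were higher, the nearest reaching 1.51. PTGS2 thus had a larger difference than these 500 genes, while CCL2 and CCL5 were each exceeded by a few. With the 500 genes nearest in mean level, 0 were higher than CCL5 or PTGS2 and 5 were lower than CCL2. The level filter on the mean of both arrays keeps strongly lower genes out of the PTGS2 set, which narrows its SD. The genes were picked for their differences, so these ranks carry no weight of their own.

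**Figure D2:**
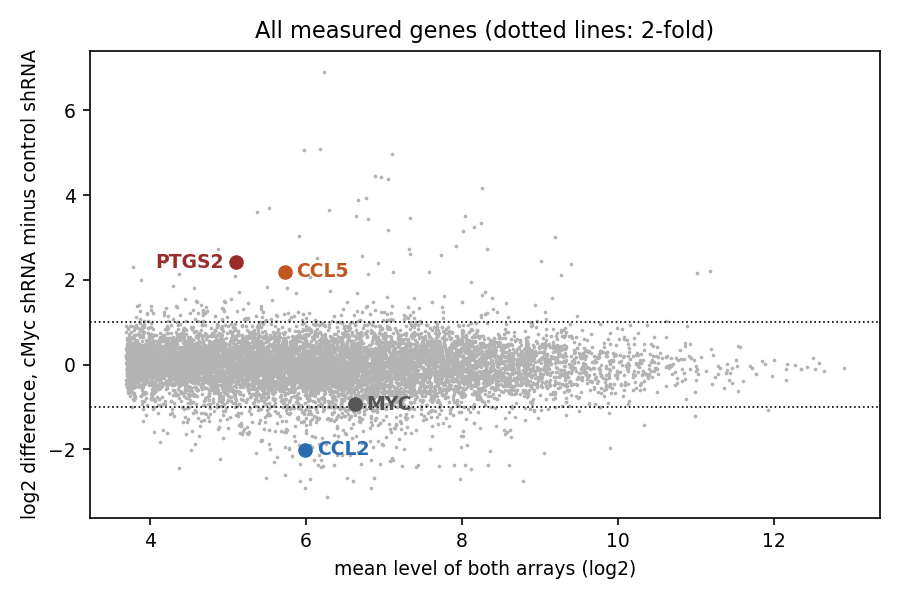
Log2 difference, cMyc shRNA minus control shRNA (vertical axis), against the mean log2 level of both arrays (horizontal axis) for the 10258 measured genes, 1 grey point per gene. CCL5 (2.19) and PTGS2 (2.41) lie above the upper 2-fold line, CCL2 (-2.02) lies below the lower one, and MYC (-0.93) lies just inside it.

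The genes most like each of the 3 were taken as the measured genes at the smallest Euclidean distance over the log2 levels of both arrays, which is a likeness over 2 samples. For CCL2 they were FIGNL1, a recombination ATPase (distance 0.0567, difference -1.99), UCN2, a peptide of the corticotropin-releasing factor family (0.120, difference -1.89), and GINS2, a subunit of the replicative helicase (0.129, difference -1.94). For CCL5 they were CREBRF, a regulator of the CREB3 factor (0.269, difference 1.81), CCDC92 (0.406, difference 1.69) and the pseudogene ADAM20P1 (0.406, difference 1.83). For PTGS2 they were CEACAM1, an adhesion receptor (0.224, difference 2.09), TMEM140 (0.387, difference 2.73) and the microRNA gene MIR598 (0.491, difference 1.72). CCL2 had closer matches than the other genes. Among its 500 neighbours in control level, 38 were past 2-fold downward and 6 upward. Over all 10258 measured genes, 410 were past 2-fold downward and 206 upward.

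CCL2 and CCL5 lie in separate clusters of chemokine genes on chromosome 17. Of the 10 named genes nearest to CCL2 in the RefSeq order, 5 on each side, 3 were measured. None of the 10 was past 2-fold, which with so few measured is near the background of 6.01% of all measured genes. Differences ran from -0.32 for TMEM98 to 0.55 for CCL8. The monocyte-attracting chemokines next to it, CCL7 and CCL8, had log2 levels of 2.52 and 2.99 with the cMyc shRNA, against 2.33 and 2.44 with the control. Those of CCL11, an eosinophil attractant, were 2.48 with the cMyc shRNA and 2.55 with the control. CCL7, CCL8 and CCL11 stayed below the level filter on both arrays. The named genes of the cluster other than CCL2 read low with either hairpin. A drop as large as that of CCL2 could therefore hardly show in them.

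Around CCL5 the 10 named neighbours differed by between -0.21 (SLFN14) and 0.40 (RDM1), and 1 of them was measured. Its chemokine neighbours CCL16 and CCL23 were below the filter, with differences of 0.05 and -0.14. Around PTGS2 the 10 neighbours differed by between -0.17 for PDC, a phosphoprotein of photoreceptors, and 0.45 for HMCN1, a matrix protein, and 2 were measured. None of these 20 was past 2-fold, which with so few measured is near the background of 6.01% of all measured genes. Genes without a name on the array lie between the named ones and were not read. The first named gene after PTGS2, LINC01720, stood 27 places away in the RefSeq order, and MYO1D stood 25 places from CCL2.

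**Figure D3:**
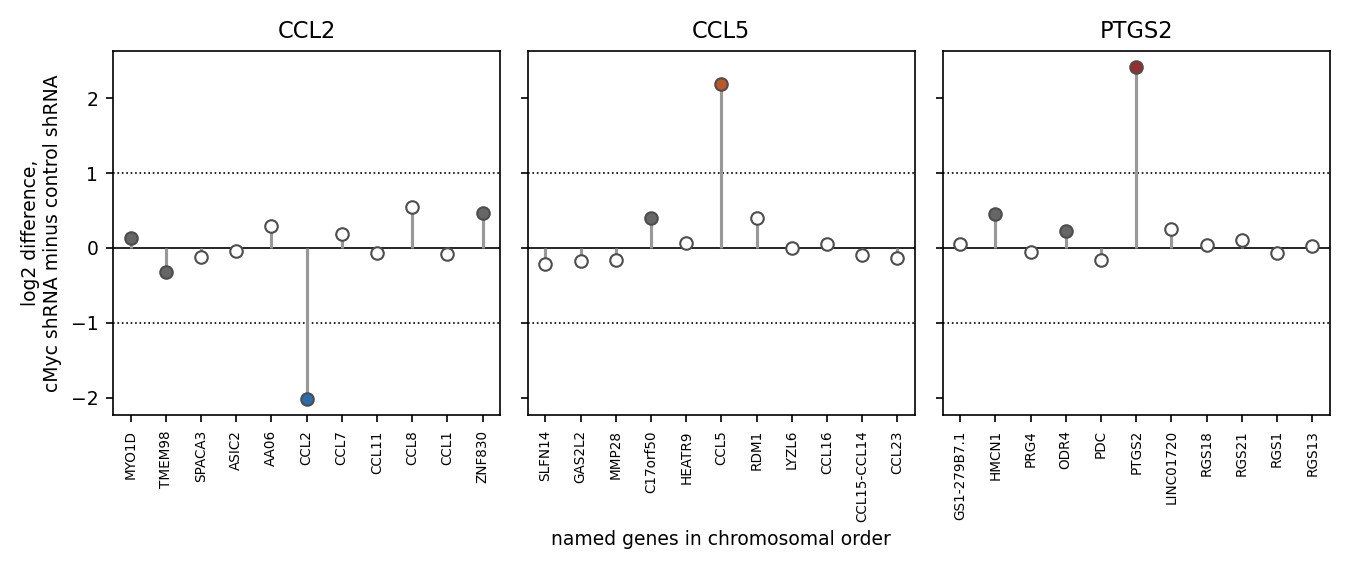
Log2 difference, cMyc shRNA minus control shRNA (vertical axis), of CCL2, CCL5 and PTGS2 and the 5 named genes on each side of them in chromosomal order (horizontal axis). Coloured points are the 3 genes, grey points other measured genes and open points genes below the level filter; every neighbour lies within the dotted 2-fold lines.

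The other chemokine ligands showed no difference of such a size. Of 34 listed, 32 were named and 14 measured, with a median difference of 0.10 beside -0.01 over all measured genes. Past 2-fold either way were 0 of the 14, which is near the background of 6.01% of all measured genes. The range ran from -0.47 for CCL20, which attracts dendritic cells and T helper cells, to 0.69 for CXCL11, an interferon-induced ligand of CXCR3. CCL20 had log2 levels of 3.98 with the cMyc shRNA and 4.45 with the control, and CXCL11 of 4.43 and 3.74. CXCL12, the ligand of CXCR4, lay nearest to 0 at -0.05. The neutrophil chemokine CXCL8 stood below the filter at 2.73 with the cMyc shRNA and 3.39 with the control. CXCL10, like CXCL11 a CXCR3 ligand, was also below it at 3.91 and 2.73, and its difference of 1.18 was the only one past 2-fold among the 32. CCL3L1 (0.69) and the pair XCL1 and XCL2 (-0.37 and 0.05) have near-identical copies, so their signals cannot be separated. CXCL1 and CCL13 are not analysed here.

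Chemokine receptors were mostly read low. Of 20 named, 3 were measured and 0 of these passed 2-fold (6.01% of all measured genes did). They were CCR7, a homing receptor of lymphocytes, at -0.34, the atypical receptor CCRL2 at 0.24 and XCR1 at 0.59. CCR2, the CCL2 receptor, had log2 levels of 2.55 with the cMyc shRNA and 2.92 with the control, below the filter. CCR1, a receptor that CCL5 can use, was likewise low at 2.56 and 2.44.

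No other measured gene of prostaglandin metabolism differed as PTGS2 did. Of 12 named genes of synthesis, export and breakdown 10 were measured, with a median of -0.03. At least 2-fold higher or lower were 0 of the 10, which is near the background of 6.01% of all measured genes. PTGS1 had log2 levels of 4.61 with the cMyc shRNA and 4.46 with the control, a difference of 0.16. The terminal prostaglandin E synthases read 4.15 and 3.88 for PTGES (0.27), while PTGES2 differed by -0.64 and PTGES3, read by 2 probe sets, by -0.40 and -0.92. PTGR1, a reductase that inactivates eicosanoids, was highest at 0.57, and PTGDS, a prostaglandin D synthase, lay nearest to 0 at -0.02. HPGD, the main prostaglandin-degrading dehydrogenase, was below the filter at 2.57 with the cMyc shRNA and 2.56 with the control. Of the phospholipases that release arachidonic acid, those listed are not analysed here.

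Prostanoid receptors had 6 measured members of 8 named, with 0 past 2-fold either way (6.01% of all measured genes were) and a median of 0.16. PTGER4, a prostaglandin E receptor that raises cyclic AMP, was lowest at -0.59, with log2 levels of 3.74 with the cMyc shRNA and 4.33 with the control. PTGFR, the prostaglandin F receptor, had 6.06 and 5.84, and its regulator PTGFRN was highest at 0.42. PTGIR, the prostacyclin receptor, lay nearest to 0 at 0.08.

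Genes of the NF-kB pathway, on which all 3 genes draw, lay on both sides of 0. Of 18 measured factors, kinases and adaptors, 9 were above 0 and 9 below, 0 passed 2-fold either way (6.01% of all measured genes did), and the median was 0.01. NFKB1 had log2 levels of 8.08 with the cMyc shRNA and 8.10 with the control, and RELA, the activating subunit, 8.54 and 8.24. The subunits of the alternative pathway, NFKB2 and RELB, differed by 0.55 and 0.54, and the receptor-associated kinase IRAK1 by -0.60. The ends of the range were TAB2, an adaptor of the TAK1 kinase, at -0.72 and BCL10, an adaptor of antigen receptor signalling, at 0.58, with TRAF3 nearest to 0. These are mRNA levels, and NF-kB is controlled mainly by the location of its proteins, which was not measured.

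Inhibitors and regulators of NF-kB had 9 measured members, of which 6 were above 0, with a median of 0.35. Past 2-fold upward was 1 of them, beside 2.01% of all measured genes. TANK, a TRAF-binding adaptor that also serves the TBK1 kinase, read 6.14 with the cMyc shRNA and 5.11 with the control, a difference of 1.04. BCL3, an atypical inhibitor, lay nearest to 0 at -0.01. Other inflammatory targets of NF-kB had 10 measured members of 16 named, with 0 past 2-fold either way, against 6.01% of all measured genes. Their median was 0.04, with a range from -0.61 for the cytokine IL11 to 0.25 for complement C3. TNF differed by 0.09. IER3, an early response gene read by 11 probe sets, differed by 0.00 on the brightest and by -0.22 on the dimmest. The adhesion genes ICAM1 and VCAM1 were below the filter, with differences of 0.10 and -0.01. NFKBIA, TNFAIP3, IL6, IL1A and IL1B are not analysed here.

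Genes on the route from RNA sensing to interferon, which is known to switch on CCL5, had 5 of 19 measured members past 2-fold upward, against 2.01% of all measured genes, and 0 downward (median 0.30). This list was drawn up with earlier results of these data known, so the count carries no weight of its own. IFIH1, a cytosolic sensor of double-stranded RNA, differed by 5.07, TLR3, the endosomal one, by 3.51, and RIGI, the sensor of RNA ends, by 3.01. IRF9, the DNA-binding part of the interferon-activated ISGF3 complex, had log2 levels of 8.01 with the cMyc shRNA and 5.44 with the control. DHX58, a regulator of RIGI and IFIH1, followed at 2.07, close to CCL5. The remaining 14 were within 2-fold, among them the kinase TBK1 (0.73), IRF1 (0.70) and IRF3 (0.23). IRF7 was nearest to 0 at -0.02, and TICAM1, the adaptor of TLR3, was lowest at -0.78. STAT2 and the interferon genes IFNB1 and IFNL1 are not analysed here. CCL5, CXCL11 and CXCL10 were higher on the array where these sensors were higher, as were 48.5% of all measured genes. CXCL9, another listed chemokine ligand below the filter, was lower there, at 2.58 with the cMyc shRNA and 3.07 with the control. The part of this route in the values of these chemokines was not tested.

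Of the other factor families tied to PTGS2, 15 AP-1, ATF, CREB and EGR genes were measured (median 0.13). Past 2-fold upward was 1 gene, against 2.01% of all measured genes. That gene was EGR1, an immediate early factor, with differences of 3.93 and 1.34 on its brighter and its dimmer probe set. FOS was nearest to 0 at 0.06, JUN differed by -0.16, CREB1 by 0.17 and ATF4 was lowest at -0.34. The C/EBP genes, whose pattern stands in the PTGS2 promoter, are not analysed here. Of 21 measured genes of MAP kinase signalling, 2 were past 2-fold upward, beside the background of 2.01%, and 0 downward (median 0.17). They were DUSP16, a phosphatase of JNK and p38 kinases, at 1.52 and SPRY4, a feedback inhibitor of growth factor receptors, at 1.20, while MAPK11 lay nearest to 0 at 0.13.

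**Figure D4:**
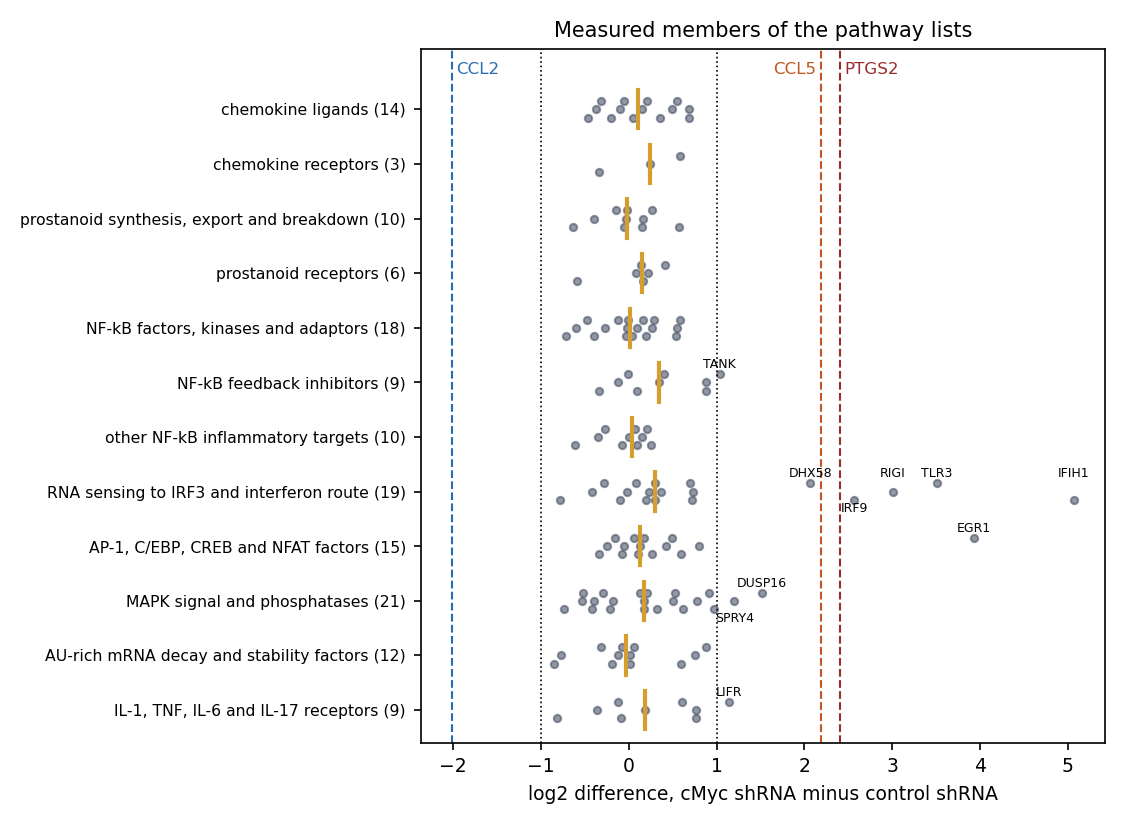
Log2 difference, cMyc shRNA minus control shRNA (horizontal axis), of the measured members of 12 pathway lists, 1 point per gene, with the number measured in brackets and the list median as a yellow bar. Dashed lines mark CCL2, CCL5 and PTGS2 and dotted lines 2-fold; the named points past 2-fold all lie on the higher side, 5 of the 10 in the RNA sensing list.

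Across the 12 pathway lists, 145 distinct genes other than the 3 were measured, of which 10 (6.90%) were past 2-fold upward and 0 downward. Over all 10258 measured genes the share was 2.01% upward (206 genes) and 6.01% either way (616 genes), with 410 genes past 2-fold downward. The lists were drawn up with earlier results of these data known, and 5 of the 10 genes came from the RNA sensing list. The gap between these shares therefore carries no weight of its own. CCL5 is also made by leukocytes. Of 23 leukocyte markers 12 were named and 8 measured, with a median difference of -0.02, and the linear levels of the 12 summed to 2822 with the cMyc shRNA and 1632 with the control. CD68, a lysosomal protein also made outside macrophages, read 11.3 with the cMyc shRNA and 10.4 with the control. The other 11 lay between 2.61 and 5.34 with the cMyc shRNA and between 2.53 and 6.15 with the control. Of these 11, 6 were above 0 in difference, the highest NKG7, a granule protein of killer cells, at 0.35, and their summed linear levels were 221 and 248. Without CSF1R, the macrophage growth factor receptor (-0.81), the sums were 181 and 178. Both arrays are of the HT1080 cell line, and the part of such cells in the CCL5 value was not tested. CD2, CD14, CD163 and LYZ were below the filter on both arrays, and none reads 0 on this scale.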

How the data were processed

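RNA of HT1080 cells was hybridised to 2 Affymetrix Human Gene 2.0 ST arrays, 1 per hairpin. The deposited table holds log2 expression levels per probe set, made with Affymetrix Expression Console, per the submitters' processing notes; the steps it ran (background correction, normalization, summarization) and its version are not stated there. The log base was inferred from the range of 1.41 to 13.9. Sorted values of the arrays differed by at most 0.12, and they were used as deposited, with 0 columns left unused.

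GEO's platform annotation named 16098 of 53617 probe sets (30.0%) by 1 symbol and 0 by several, and 37519 are unnamed here. Entrez identifiers of all 16098 matched RefSeq's GRCh38.p14 table, used for chromosomes and gene order. The probe set with the highest mean stood for a gene. Since there are no replicates, genes were counted by a fixed 2-fold rule, without a test.

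The members, the 16 gene lists (353 genes, 169 measured), the rules and the tests were chosen with earlier results of these data known. The rule for named genes took the 3 genes and MYC, the 3 genes most like each, up to 4 members of each list past 2-fold in each direction, the member nearest to 0, and CCL7, CCL8, CXCL8, PTGS1, PTGES and HPGD. Other genes, such as those at the ends of a list's range, were named after their values were seen. Alternatives were other scalings, level filters, probe set and fold rules. Python 3.11.15, numpy 2.4.6, pandas 2.3.3, statsmodels 0.14.6 and matplotlib 3.10.9 were used, and the calculations were tested on simulated data. The precision of a value is limited by the 2 arrays.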

Additional observations from a re-analysis of the deposited data

How the results depend on the processing

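Of 130 values recomputed under other settings, 121 moved by less than 0.34 on the log2 scale or, for counts, stayed within 1.5 times, and CCL2, CCL5 and PTGS2 kept their directions. Some values could hardly move: CCL2, CCL5, PTGS2 and MYC each have 1 probe set, so averaging probe sets returned the same value. Centring on the median shifts every difference by the same small amount. Under centring on the median, quantile normalization and loess, CCL2 lay between -2.06 and -1.98, CCL5 between 2.14 and 2.21 and PTGS2 between 2.37 and 2.43. Adding 16 to each linear value, which compresses low levels by construction, gave -1.60 for CCL2, 1.66 for CCL5 and 1.62 for PTGS2, all still past 2-fold. Raising the level filter to the 75th percentile leaves fewer genes, of which 126 were past 2-fold upward. By construction, a 1.5-fold rule gave 900 higher and 1224 lower, and a 3-fold rule 61 and 113. The endothelial marker median was -0.42 with that stricter filter, again over fewer genes, against 0.02. Medians of 6 of the 16 lists, all within 0.04 of 0, changed sign under at least 1 setting: prostanoid synthesis, NF-kB factors, other NF-kB targets, AU-rich decay factors, leukocyte markers and endothelial markers. The setting that kept only genes at or above the filter on both arrays was chosen after seeing the data. No paired analysis was possible because each group has 1 array. Signal over background is unknown, which limits the fold of PTGS2 most.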

Other observations

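Factors that control the decay of AU-rich messages, a class that includes PTGS2 and many chemokines, were also listed. Of 12 measured, 0 were at least 2-fold higher or lower, against 6.01% of all measured genes, with a median difference of -0.03. CAPRIN1, an RNA-binding protein of stress granules, was lowest at -0.85, and N4BP1, an RNA-cutting protein, was highest at 0.88. KHSRP, which promotes decay of such messages, differed by -0.77 and the endonuclease ZC3H12A by 0.01. ZFP36 and ELAVL1 are not analysed here.

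Receptors of inflammatory cytokines had 9 measured members with a median of 0.19, of which 1 was past 2-fold upward and 0 downward. Of all measured genes, 2.01% were past 2-fold upward. LIFR, the receptor of leukaemia inhibitory factor, had log2 levels of 6.21 with the cMyc shRNA and 5.07 with the control shRNA, a difference of 1.14. OSMR, its relative for oncostatin M, lay nearest to 0 at -0.08, and CSF1R was lowest at -0.81. IL17RA and IL17RC, which together bind interleukin IL17, differed by 0.76 and 0.77, within 2-fold. IL1R1 and TNFRSF1A are not analysed here.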
